A study of Homo sapiens with 27 samples.

Results

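MCF10DCIS.com cells grown with calcium oxalate monohydrate plates (COM) were compared with untreated cells of the same line (Control). The members were chosen by library title, COM A to D against Control A to G, which gave 4 COM and 7 Control libraries of the 27 libraries in the series. MCF10DCIS.com is an established human breast line of the MCF10A family that forms lesions like ductal carcinoma in situ in mice, and the labels call its cells premalignant. COM flasks received crystals at 0.1 mg/mL and Control flasks received none. The dihydrate crystals (COD) used for comparison were given at the same dose as dumbbells (DB), spheres (SPH), thin bipyramids (TN) and thick bipyramids (TK), with 4 libraries each. The RNA came from thawed samples and was enriched for polyadenylated molecules. The sources used here give no exposure time. They also do not say whether replicates are separate cultures, so the p-values reflect only the variation among these libraries, and part of it may be technical.

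Calcium oxalate forms in breast tissue as one kind of microcalcification, usually as the dihydrate, while the monohydrate is the common mineral of kidney stones. Epithelial cells that meet a crystal surface can respond through NF-kB, a transcription factor held in the cytoplasm by IkB proteins until an upstream kinase marks these for destruction, and through ATF4, whose translation rises when stress kinases slow general protein synthesis. Heat shock factor 1 drives chaperone genes when unfolded proteins draw chaperones away from it.

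Sequencing gave 13352599 to 29912810 counts in the COM libraries and 13963755 to 32537868 in the Control libraries. Mitochondrial transcripts took 4.64 to 6.28% of counts in COM and 2.56 to 7.02% in Control, and mean fragment lengths were 217.7 to 270.3 nt in COM and 197.6 to 269.3 nt in Control. The serial numbers in the names of the deposited tables split the libraries into 3 sets (1 to 10, 11 to 22 and 23 to 27), whose meaning (preparation, sequencing or other) the labels do not give. Set 1 held COM A and B with Control A and B, set 2 held COM C with Control C to F, and set 3 held COM D with Control G. Untreated cells differed between sets. CHAC1 lay between 15.7 and 20.5 CPM (counts scaled to the same TMM-normalized library total) in Control C to F, against 2.88 to 3.15 CPM in Control A, B and G, and SERPINB2 lay between 7.22 and 10.6 CPM in Control C to F, against 33.4 to 35.9 CPM in the other controls. The model that compared COM with Control therefore also held the set, in which COM C was placed by its serial number. The endothelial marker PECAM1 had 3.12 CPM in COM C and 1.95 to 3.5 CPM in Control C to F, against 8.38 to 13.4 CPM in the other COM libraries. However, mitochondrial transcripts took 5.21% of counts in COM C, against 2.56 to 3.75% in Control C to F, and its CHAC1 level was near that of the other COM libraries. How well COM C shares the set 2 baseline was not tested. The summed level of 7 basal breast epithelial markers was 9060 to 11200 CPM in COM and 8650 to 9380 CPM in Control. Fibroblast markers summed to 10.2 to 13.3 CPM in COM and 9.37 to 13.1 CPM in Control, and the leukocyte markers PTPRC and CD3E had no counts in COM. Among the dihydrate libraries, TN B stood apart with 659 CPM of the liver gene ALB, against at most 2.97 CPM in COM, and the place of TN C (serial number 11) in set 2 is uncertain. In bulk RNA, fewer cells of a type and less RNA per cell cannot be told apart.

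COM plates went with higher levels of inflammatory cytokines, ATF4 targets and secreted proteases, and with lower levels of cytosolic chaperones and cell division genes. Of 16173 genes tested, 638 (3.94%) were higher in COM and 391 (2.42%) were lower, which is 6.36% in all (edgeR quasi-likelihood test, adjusted p under 0.05 by Benjamini-Hochberg over all genes). The median log2 fold change of the called genes was 0.36 for those that rose and -0.37 for those that fell, and over all tested genes it was -0.01. A change of at least 1 on the log2 scale was reached by 38 of the genes that rose (0.235% of those tested) and 20 of those that fell (0.124%). All 4 COM libraries lay on the called side of the mean of their own set's controls for 621 of the 638 genes and for 387 of the 391 genes. The calls were made from these same libraries, so this agreement adds no separate support. The CPM of all 4 COM libraries lay above that of all 7 Control libraries for 181 of the 638 genes, against 1.53% of all tested genes, and below it for 192 of the 391 genes, against 1.80%. Without the set term 543 genes (3.36%) were called, 537 of them in common with the fit that had it. The number called was 566 without COM A and 529 without COM B, the libraries of set 1. With the library letters A to D as a block in place of the set, over 4 COM and 4 Control libraries, 566 were called. This letter block joins COM D of set 3 with Control D of set 2, so it does not fully hold the set.

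**Figure D1:**
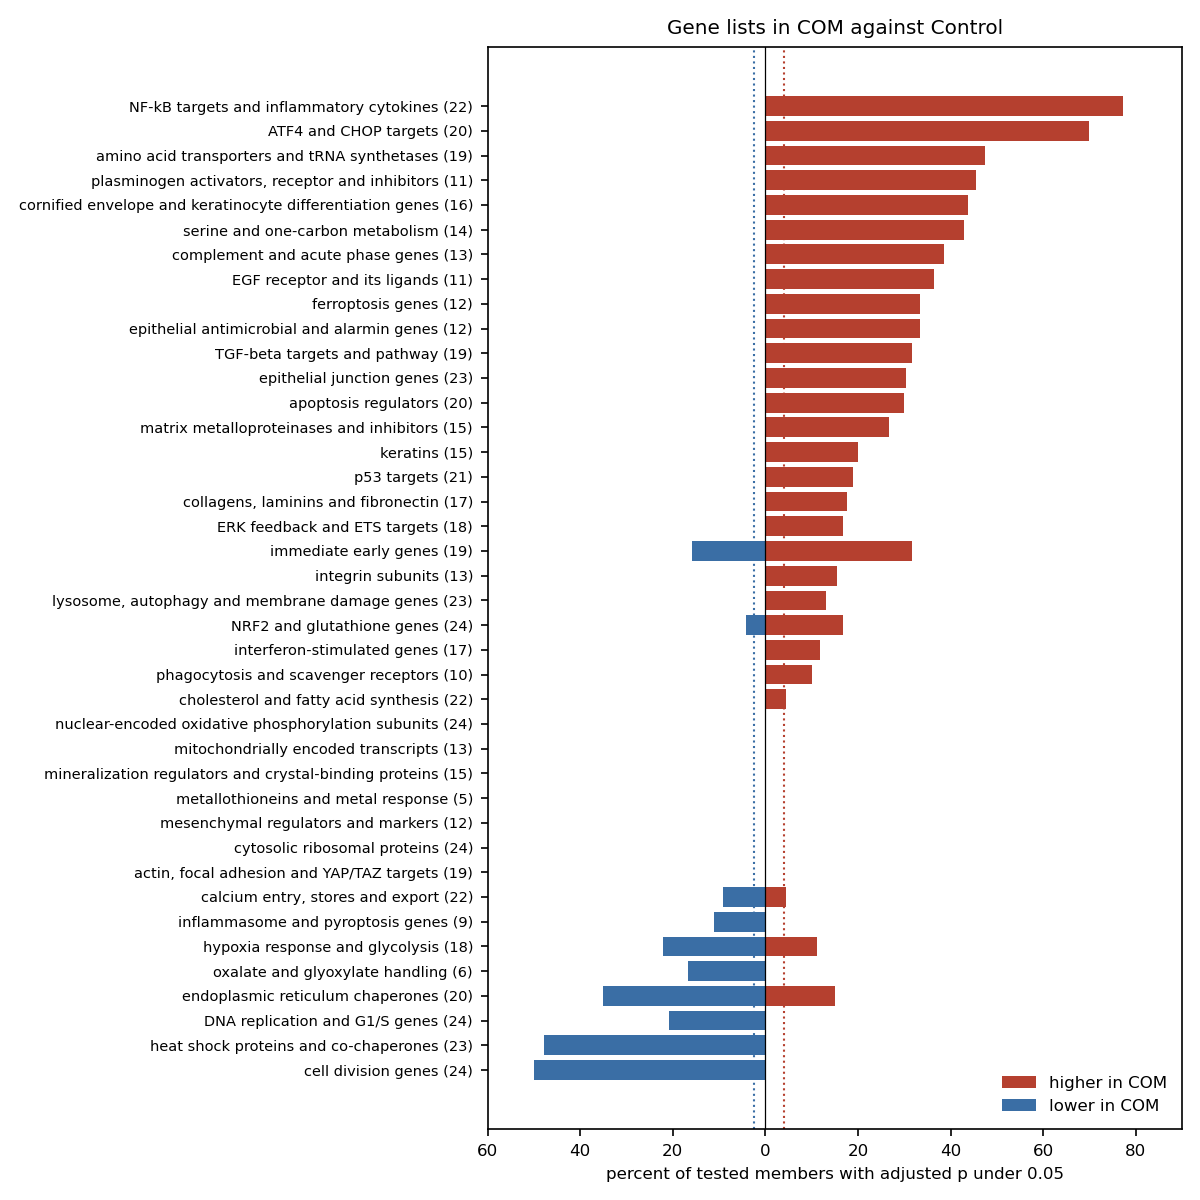
Percent of the tested members of 40 gene lists that passed the test, higher in COM to the right and lower in COM to the left, with the number tested in parentheses and the share of all genes as dotted lines (3.94% and 2.42%). Inflammatory and ATF4 target genes reach farthest to the right (17 of 22 and 14 of 20), and cell division and heat shock genes farthest to the left (12 of 24 and 11 of 23).

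Inflammatory genes formed the clearest group that rose. Of 22 tested NF-kB targets and cytokines (24 were listed), 17 rose, or 77.3% against 3.94% of all genes, and none fell. Their median log2 fold change was 0.76, against -0.01 for all genes. PTGS2, the inducible cyclooxygenase that starts prostaglandin synthesis, had 59.4, 84.5, 51.2 and 49.6 CPM in COM A to D, against 13.1 to 23.6 CPM in Control, with a median of 20.1 CPM. Every COM library lay above every Control library. PTGS2 was higher by 1.72 on the log2 scale (SE 0.14, edgeR adjusted p = 1.16e-08). CXCL8, the neutrophil chemokine interleukin-8, had 365.2, 357.9, 213.1 and 224.6 CPM in COM, against 96.2 to 140.4 CPM in Control with a median of 123.9 CPM, and a log2 fold change of 1.13 (SE 0.11, edgeR adjusted p = 3.42e-07). The groups did not overlap, and the set 1 libraries COM A and B were the highest.

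CCL20, a chemokine for dendritic cells and memory lymphocytes, had 25.4, 21.04, 10.8 and 14.5 CPM in COM A to D, against 4.24 to 7.31 CPM in Control with a median of 6.00 CPM. Again no COM library fell within the Control range. Its log2 fold change was 1.44 (SE 0.15, edgeR adjusted p = 9.91e-07). Its promoter is shown because it is the NF-kB list member with the largest rise whose 300-base window holds the motif, from 250 bases before to 50 after the start (RefSeq, GRCh38.p14, chr2:227813592-227813891, plus strand). Capitals mark the match to the NF-kB motif GGNNTTTCC, which starts 79 bases before the gene's start and reads on the minus strand.
CCL20: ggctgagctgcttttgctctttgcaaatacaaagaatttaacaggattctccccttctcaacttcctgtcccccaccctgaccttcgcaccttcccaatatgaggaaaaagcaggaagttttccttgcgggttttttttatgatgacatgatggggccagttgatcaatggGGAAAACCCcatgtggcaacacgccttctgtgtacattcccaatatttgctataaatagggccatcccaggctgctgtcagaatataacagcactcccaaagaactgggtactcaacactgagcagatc
This motif, searched on both strands, was found in 10 of the 14 called list members with a promoter in the table (71.4%). It was found in 64.7% of the 17 tested list members with a promoter, called or not. The list was drawn up as NF-kB targets and cytokines, so its shares cannot link the motif to the response to COM. The motif stood in 54 of the 490 genes that rose and in 6.02% of those that fell. Of all 10676 protein-coding tested genes with a promoter, 6.77% held it. The match in CCL20 overlapped none of the other motifs searched. A match describes the letters in this window and shows no binding.

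The same list held IL1B, which encodes the cytokine interleukin-1 beta. IL1B had 387.7, 400.5, 118.2 and 245.6 CPM in COM A to D, against 62.5 to 168.8 CPM in Control with a median of 85.5 CPM. COM C lay inside the Control range but above all 4 controls of its own set, of which the highest had 85.5 CPM. The log2 fold change of IL1B was 1.06 (SE 0.14, edgeR adjusted p = 1.47e-05). Its relative IL1A, released as an alarm signal by damaged epithelium, rose by 0.84, and the neutrophil chemokines CXCL1 and CXCL3 rose by 0.80 and 1.29 on the log2 scale. CSF2, a growth factor for myeloid cells, rose by 1.27, and CCL2, a monocyte chemokine, rose by 1.04. The feedback inhibitors of the pathway also rose, with log2 fold changes of 0.61 for TNFAIP3, which removes ubiquitin from signalling proteins, and 0.27 for NFKBIA, the IkB alpha protein. NFKBIA passed neither without the set term (edgeR adjusted p = 0.07) nor with the letter block (0.0864). ICAM1, the ligand for leukocyte integrins, rose by 0.77, and LIF, an interleukin-6 family cytokine, rose by 0.70. IL6 and TNF were too low to test, with 9 and 36 counts summed over the COM libraries and 4 and 22 over the Control libraries. Without the set term 15 list members rose, against 1.82% of all genes.

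SOD2, the mitochondrial enzyme that turns superoxide into hydrogen peroxide and a gene known to respond to NF-kB, was in no list but rose strongly. It had 260.0, 276.6, 223.7 and 198.4 CPM in COM A to D, against 107.0 to 143.9 CPM in Control with a median of 130.1 CPM. The groups did not overlap, and the set 2 controls lay between 130.1 and 143.9 CPM, above the other controls. The log2 fold change was 1.04 (SE 0.08, edgeR adjusted p = 6.97e-09).

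Secreted defence proteins moved in the same direction. Of 12 tested antimicrobial and alarmin genes 4 rose (33.3%, median log2 fold change 0.60), against 3.94% of all genes. Of 13 tested complement and acute phase genes 5 rose (38.5%, median 0.30), and none was lower in either list. SAA2, a serum amyloid that binds lipids during inflammation, had 7.84, 7.995, 4.93 and 9.18 CPM in COM, against 1.52 to 3.47 CPM in Control, and a log2 fold change of 1.502 (edgeR adjusted p = 1.4e-05). LCN2, which starves bacteria of iron by binding their siderophores, rose by 0.73. CFB and C3, proteins of the alternative complement pathway, rose by 0.61 and 0.31. LCN2 and C3 did not pass without the set term (edgeR adjusted p = 0.211 and 0.163). Of 17 tested interferon-stimulated genes only IRF1 and OASL rose (11.8%), by 0.39 and 0.89. Among 9 tested inflammasome genes none rose. CARD8, a sensor that can start pyroptosis, fell by 0.39 and was the only member that did (11.1%, against 2.42% of all genes). With the letter block C3, IRF1, OASL and CARD8 did not pass (edgeR adjusted p = 0.0613, 0.102, 0.0554 and 0.162). IRF1 and CARD8 also did not pass without the set term (0.0658 and 0.0674).

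**Figure D2:**
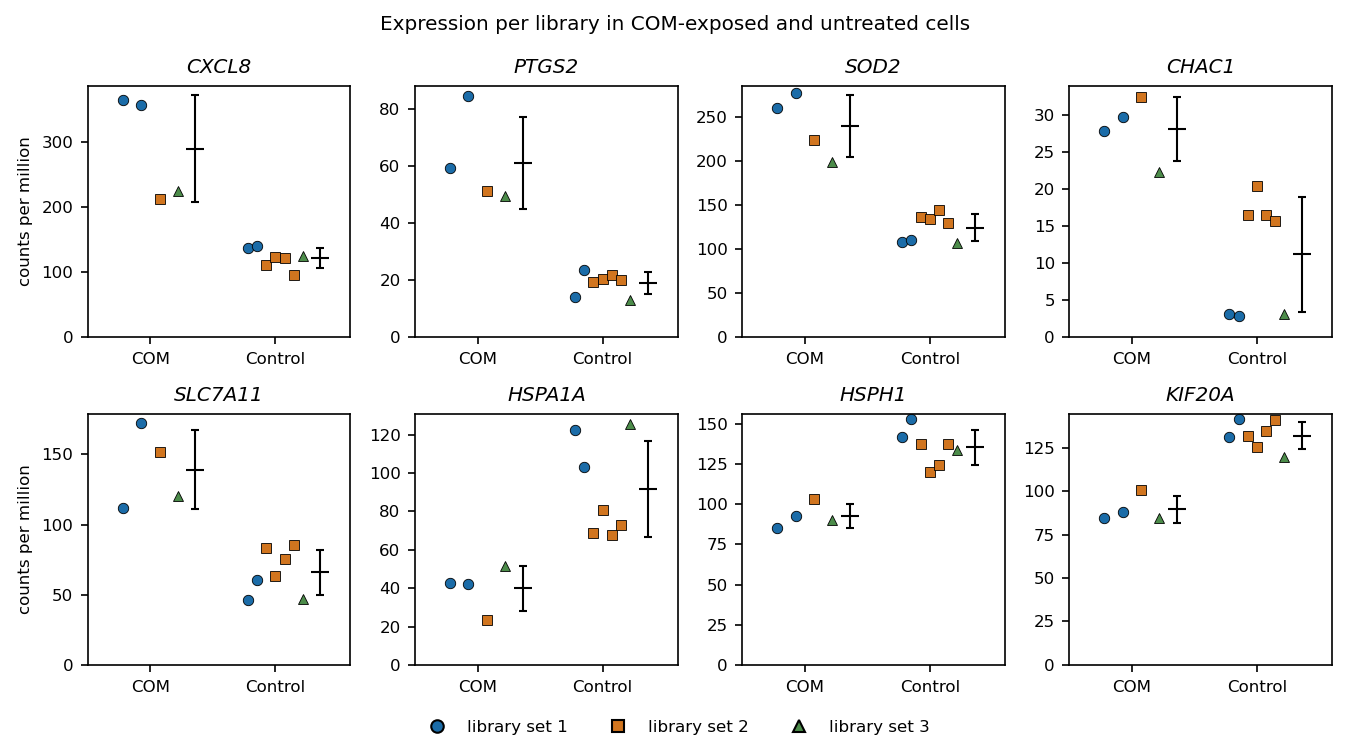
CPM of 8 genes in every library, COM left of Control, on linear axes from 0, with 1 point per library marked by its set and the mean ± SD beside each group. CXCL8, PTGS2, SOD2, CHAC1 and SLC7A11 lie higher in all 4 COM libraries than in all 7 Control libraries, HSPA1A, HSPH1 and KIF20A lie lower, and CHAC1 in Control splits by set.

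ATF4 target genes formed the other large group that rose, and here the calls depended on how the library set was handled. Of 20 tested ATF4 and CHOP targets 14 rose, or 70.0% against 3.94% of all genes, and none fell (median log2 fold change 0.55). DDIT3, which encodes the stress transcription factor CHOP, had 16.2, 9.47, 22.1 and 11.5 CPM in COM A to D, against 3.52 to 12.5 CPM in Control with a median of 8.51 CPM. The groups overlapped across sets, while each COM library lay above the controls of its own set. The log2 fold change was 1.34 (SE 0.18, edgeR adjusted p = 3.01e-05). Further targets that rose were SESN2, an inhibitor of mTORC1 under amino acid shortage, by 1.13, STC2, a secreted glycoprotein, by 1.23, the pseudokinase TRIB3 by 0.92 and asparagine synthetase ASNS by 0.45. Without the set term 1 of the 20 genes rose, against 1.82% of all genes. With the letter block 2 rose, among 335 genes higher in that fit. DDIT3, STC2, TRIB3 and ASNS passed in neither (DDIT3 edgeR adjusted p = 0.21 without the set term and 0.0553 with the letter block). Within sets the count was 11 in set 1, 5 in set 2 and 5 in set 3, beside 2.65%, 0.346% and 0.0742% of all genes called higher in these sets.

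CHAC1, an enzyme that breaks down glutathione, had the largest fold change of the called ATF4 targets. It had 27.8, 29.7, 32.4 and 22.3 CPM in COM A to D, against 2.88 to 20.5 CPM in Control with a median of 15.7 CPM. All COM libraries lay above all Control libraries, and the Control libraries fell apart by set. CHAC1 was higher by 3.25 on the log2 scale in set 1, 0.91 in set 2 and 2.82 in set 3, and by 1.87 over all sets (SE 0.30, edgeR adjusted p = 0.000285). With the letter block it did not pass (log2 fold change 1.75, edgeR adjusted p = 0.061). The effect in set 1 exceeded that in set 2 by 2.33 on the log2 scale (edgeR interaction test, adjusted p = 0.0244). Only 4 genes (0.0247% of those tested) passed that test, and they included STC2 (difference 1.15, adjusted p = 0.0376) and ADM2, a calcitonin-family peptide (difference 1.20, adjusted p = 0.0307). The promoter of CHAC1 is shown for its match to TGATGNAA, the C/EBP-ATF response element (CARE) through which ATF4 acts, in capitals 209 bases before the start on the minus strand (RefSeq, GRCh38.p14, chr15:40953221-40953520, plus strand).
CHAC1: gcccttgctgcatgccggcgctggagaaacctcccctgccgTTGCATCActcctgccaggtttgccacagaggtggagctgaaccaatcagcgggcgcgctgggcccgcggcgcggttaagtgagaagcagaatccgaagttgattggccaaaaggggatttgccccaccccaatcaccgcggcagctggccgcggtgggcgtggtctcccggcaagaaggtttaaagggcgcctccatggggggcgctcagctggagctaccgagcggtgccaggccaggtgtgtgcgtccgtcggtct
A CARE match, searched on both strands, stood in 4 of the 14 called list members and in 4 of the 19 tested list members with a promoter. It stood in 5.51% of the genes that rose, in 1.34% of those that fell and in 1.76% of all promoters. In the 250 bases before the start alone, the share among the genes that rose was 3.67%, against 1.47% of all promoters.

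Genes that supply amino acids rose alongside these targets. SLC7A11, the cystine importer that feeds glutathione synthesis, had 112.2, 172.7, 151.5 and 120.4 CPM in COM A to D, against 46.1 to 85.7 CPM in Control with a median of 63.3 CPM. All COM libraries lay above all Control libraries, and the log2 fold change was 1.25 (SE 0.13, edgeR adjusted p = 8.21e-07). In its list of 19 tested amino acid transporters and tRNA synthetases 9 rose, or 47.4% against 3.94% of all genes, and none fell. Those that rose included the neutral amino acid carrier SLC1A4 by 0.81, the glycine carrier SLC6A9 by 0.66 and the tryptophan tRNA synthetase WARS1 by 0.49. Of 14 tested serine and one-carbon genes 6 rose (42.9%), including GPT2 by 0.50, PSAT1 by 0.48 and MTHFD2 by 0.37. CBS also passed, but its near-identical copy in the annotation makes its count uncertain. Without the set term 2 of the 19 and 0 of the 14 genes rose, against 1.82% of all genes. With the letter block 3 and 1 did. The log2 fold changes without the set term were 0.15 for GPT2 (edgeR adjusted p = 0.796), 0.19 for PSAT1 (0.696), 0.15 for MTHFD2 (0.709) and 0.44 for SLC1A4 (0.47). Of 24 tested NRF2 and glutathione genes 4 rose (16.7%) and 1 fell (4.17%, against 2.42% of all genes), with a median of -0.03. Besides SLC7A11, the factor itself, NFE2L2, rose by 0.38, the glutathione synthesis subunit GCLC by 0.34 and sulfiredoxin SRXN1 by 0.30, and glutathione reductase GSR fell by 0.17. NFE2L2, SRXN1 and GSR passed neither without the set term nor with the letter block.

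Cytosolic chaperone genes fell. Of 23 tested heat shock proteins and co-chaperones 11 fell, or 47.8% against 2.42% of all genes, and none rose, with a median log2 fold change of -0.30. HSPA1A, the inducible HSP70, had 42.5, 42.0, 23.5 and 51.7 CPM in COM A to D, against 67.6 to 125.7 CPM in Control with a median of 80.6 CPM. All COM libraries lay below all Control libraries. HSPA1A fell by 1.44 on the log2 scale (SE 0.12, edgeR adjusted p = 2.77e-08). Its near-identical copy HSPA1B fell by 1.24 (SE 0.09), and because reads can fit both genes their separate values are uncertain. HSPH1, a nucleotide exchange factor for HSP70, had 85.5, 92.8, 103.1 and 90.4 CPM in COM, against 120.2 to 153.0 CPM in Control, and fell by 0.55 (SE 0.09, edgeR adjusted p = 0.000209). The constitutive HSPA8 fell by 0.59, its co-chaperone DNAJA1 by 0.67 and HSP90AA1, the inducible HSP90, by 0.38. Within set 2 alone 5 members fell (0.155% of all genes) and within set 3 alone 2 fell (0.0247%).

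CHORDC1, a co-chaperone that binds HSP90, had 23.3, 20.03, 43.4 and 22.97 CPM in COM A to D, against 43.1 to 55.8 CPM in Control with a median of 47.3 CPM. COM C lay just inside the Control range and the other COM libraries lay far below it. CHORDC1 fell by 0.74 (SE 0.13, edgeR adjusted p = 0.000643). Its promoter carries a run of heat shock elements, shown in capitals as 3 overlapping matches, over both strands, to the alternating units GAA, TTC and GAA with 2 bases of any kind between them, the first at 60 bases before the start (RefSeq, GRCh38.p14, chr11:90223000-90223299, minus strand, printed in the gene's direction).
CHORDC1: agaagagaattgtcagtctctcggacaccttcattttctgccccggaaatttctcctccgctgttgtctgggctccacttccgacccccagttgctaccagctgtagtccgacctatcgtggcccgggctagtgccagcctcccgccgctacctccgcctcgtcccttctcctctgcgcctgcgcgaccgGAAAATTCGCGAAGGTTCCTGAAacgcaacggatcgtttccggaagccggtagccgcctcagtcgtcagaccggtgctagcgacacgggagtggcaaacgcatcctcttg
The element is rare. It stood in 34 of the 10676 promoters (0.318%), in 0 of the 490 genes that rose with a promoter and in 5 of the 299 that fell (1.67%). In the list it stood in 3 of the 10 called members and in 3 of the 20 tested members with a promoter.

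Chaperones of the endoplasmic reticulum split. Of 20 tested genes 7 fell and 3 rose, with a median of -0.17. HSPA5, the main HSP70 of that compartment, fell by 0.28, the calcium-binding chaperone CALR by 0.35 and the secreted factor MANF by 0.36. The members that rose were ERN1, the sensor kinase IRE1, by 0.44, its target XBP1 by 0.33 and HERPUD1, which takes part in protein disposal, by 0.30. In the fit without the set term none of the 20 fell and 1 rose, against 1.82% of all genes higher. With the letter block 2 fell and none rose.

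Growth factor and early response genes changed in both directions. Of 19 tested immediate early genes 6 rose (31.6%, against 3.94% of all genes) and 3 fell (15.8%, against 2.42%). FOSB had 29.6, 12.5, 8.59 and 23.02 CPM in COM A to D, against 9.03 to 115.1 CPM in Control with a median of 27.3 CPM. The Control libraries spread widely, with the highest values in set 1 and set 3, and FOSB fell by 1.70 (SE 0.30, edgeR adjusted p = 0.000835). The other AP-1 subunits JUN and FOS fell by 0.74 and 0.63, while FOSL1 and FOSL2 rose by 0.47 and 0.24. KLF4, a regulator of epithelial differentiation, rose by 0.77. Of 11 tested genes for the EGF receptor and its ligands 4 rose (36.4%) and none fell. Those that rose were HBEGF by 0.87, EPGN by 0.59, EREG by 0.53 and AREG by 0.50. All 4 are ligands. Of 18 tested ERK feedback and ETS targets 3 rose (16.7%), namely LIF, PHLDA1 by 0.29 and ETV5 by 0.22. ETV5 had a log2 fold change of 0.15 without the set term (edgeR adjusted p = 0.483) and 0.12 with the letter block (adjusted p = 0.425). With the letter block FOSB, JUN, FOS, FOSL2 and KLF4 did not pass (edgeR adjusted p between 0.0646 and 0.318), and without the set term FOSB, FOS, FOSL2, AREG and EPGN did not.

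Proteases that act outside the cell were among the genes that rose. MMP9, a gelatinase, had 11.3, 17, 2.70 and 10.7 CPM in COM A to D, against 0.454 to 2.26 CPM in Control with a median of 1.19 CPM. Each COM library lay above all Control libraries, COM C only just, while its own set's controls reached at most 1.19 CPM. MMP9 was higher by 2.56 (SE 0.38, edgeR adjusted p = 0.000112). Of 15 tested matrix metalloproteinases and inhibitors 4 rose (26.7%, against 3.94% of all genes). Besides MMP9 these were MMP10 by 0.84, MMP28 by 0.64 and the sheddase ADAM8 by 0.41. Among 11 tested genes of the plasminogen system 5 rose (45.5%), including the activator PLAU by 0.74 and its inhibitor SERPINB2 by 1.10. PLAU had 304.8, 316.1, 194.4 and 240.2 CPM in COM, against 112.5 to 174.6 CPM in Control, with no overlap. MMP10, MMP28, ADAM8 and SERPINB2 did not pass without the set term, while with the letter block they did.

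Some genes of adhesion, the basement membrane and squamous differentiation also rose, against 3.94% of all genes. Of 19 tested TGF-beta targets and pathway genes 6 rose, with PMEPA1, which damps TGF-beta signalling, at 72.5, 75.5, 36.6 and 74.3 CPM in COM A to D, against 22.2 to 43.9 CPM in Control. COM C overlapped the controls of the other sets and lay above those of its own, of which the highest had 28.5 CPM, and PMEPA1 was higher by 0.69 (SE 0.095, edgeR adjusted p = 4.2e-05). Of 17 tested collagens, laminins and fibronectin 3 rose, among them the laminin chains LAMA3 by 0.41 and LAMB3 by 0.45. Of 13 tested integrin subunits 2 rose, the fibronectin receptor subunit ITGA5 by 0.48 and ITGB6 by 0.30. Of 23 tested junction genes 7 rose, led by the desmosomal cadherin DSG3 by 0.65 and the connexin GJB2 by 0.54. Among 16 tested cornified envelope genes 7 rose (median 0.51), including involucrin IVL by 0.78, the cross-linking enzyme TGM1 by 0.92 and the small proline-rich protein SPRR2A by 1.09. SPRR2A and SPRR2D share sequence, so their separate values are uncertain. Of 15 tested keratins KRT81, KRT16 and KRT6B rose, by 0.59, 0.43 and 0.33, but KRT5, the basal keratin, had a log2 fold change of -0.16 (edgeR adjusted p = 0.129) and E-cadherin CDH1 one of 0.11 (adjusted p = 0.413). None of 12 tested mesenchymal genes passed the test. LAMA3, ITGB6 and IVL passed neither without the set term nor with the letter block, LAMB3 and KRT81 did not pass without the set term, and TGM1 and KRT6B did not pass with the letter block.

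Cell division genes were lower, by small amounts. Of 24 tested members 12 fell, none rose and none had a positive log2 fold change, and the median was -0.30. KIF20A, a kinesin of cytokinesis, had 84.6, 88.0, 100.9 and 84.5 CPM in COM A to D, against 119.5 to 141.6 CPM in Control with a median of 131.6 CPM. The groups did not overlap, and the log2 fold change was -0.54 (SE 0.06, edgeR adjusted p = 6.55e-06). CENPF at the kinetochore fell by 0.45, the checkpoint kinase BUB1B by 0.42, TOP2A by 0.39 and cyclin CCNB1 by 0.38. MKI67, the usual proliferation marker, had a log2 fold change of -0.39 and did not pass (edgeR adjusted p = 0.0647). Of 24 tested DNA replication genes 5 fell (20.8%), among them UHRF1 by 0.43 and MCM4 by 0.31. Without COM A 6 cell division genes fell and without COM B 7, and within set 2 and set 3 alone none passed.

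Genes that halt growth or promote death rose in part. Of 21 tested p53 targets 4 rose, namely GADD45A by 0.67, PLK3 by 0.42, the cyclin kinase inhibitor CDKN1A by 0.35 and the death receptor TNFRSF10B by 0.28. Among 20 tested apoptosis regulators 6 rose (30.0%), on both sides of the process. PMAIP1 and BAK1, which promote it, rose by 0.61 and 0.27. BCL2A1, BCL2L1 and CFLAR, which oppose it, rose by 0.88, 0.38 and 0.33. Among 12 tested ferroptosis genes 4 rose (33.3%), which were PTGS2, CHAC1, SLC7A11 and the ferritin receptor NCOA4, the last by 0.23. Of 18 tested hypoxia and glycolysis genes 4 fell (22.2%, against 2.42% of all genes) and 2 rose (11.1%). EGLN3, an oxygen-sensing hydroxylase, had 0.930, 0.388, 1.23 and 0.478 CPM in COM A to D, against 1.74 to 2.54 CPM in Control, and a log2 fold change of -1.47 (edgeR adjusted p = 0.00013). These are low levels, but the groups did not overlap. With the letter block PLK3, PMAIP1, BCL2A1 and NCOA4 did not pass (edgeR adjusted p between 0.0526 and 0.18), and NCOA4 also did not without the set term (0.142).

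Lists tied to crystals, minerals or basic metabolism held between 0 and 3 called genes each, beside 3.94% of all genes called higher and 2.42% called lower. The calcium and cholesterol lists each had 4.55% of members higher, which is close to the share of all genes. In the calcium list 9.09% were lower. Of 15 tested regulators of mineralization and crystal-binding proteins none passed, and SPP1, which encodes the crystal-binding protein osteopontin, stayed below 1 CPM with a log2 fold change of -0.20 (edgeR adjusted p = 0.936). Of 6 tested oxalate and glyoxylate genes 1 fell, the oxalate exchanger SLC26A6, by 0.32. Of 22 tested calcium genes 2 fell, the sodium-calcium exchanger SLC8A1 by 0.81 and the store channel ITPR1 by 0.39, and the store sensor STIM1 rose by 0.19. Of 23 tested lysosome and autophagy genes 3 rose, GABARAPL1 by 0.47, WIPI1 by 0.41 and MAP1LC3B by 0.32. Among 10 tested phagocytosis and scavenger genes the early endosome GTPase RAB5A alone rose, by 0.41, and among 22 tested cholesterol and fatty acid genes the transcription factor SREBF1 alone rose, by 0.28. With the letter block SLC26A6, STIM1 and SREBF1 did not pass (edgeR adjusted p between 0.0727 and 0.143), and without the set term SLC26A6 and ITPR1 did not (0.0591 and 0.0666). No member passed among 19 actin, focal adhesion and YAP/TAZ genes, 24 nuclear oxidative phosphorylation subunits, 13 mitochondrially encoded transcripts, 24 ribosomal proteins or 5 metallothionein and metal response genes, whose median log2 fold changes were, in this order, 0.06, -0.12, 0.16, 0.02 and -0.07.

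The remaining largest falls belonged to no list. DNASE1, a secreted nuclease, had 5.15, 5.12, 6.47 and 5.89 CPM in COM A to D, against 8.89 to 12.8 CPM in Control, with no overlap, and fell by 0.88 (SE 0.11, edgeR adjusted p = 7.76e-06). BANP, a chromatin-binding protein, fell by 0.78, LFNG, which adds sugars to Notch, by 0.73 and the poly(A) polymerase family member TENT5A by 0.70. EIF3CL, which shares its sequence with EIF3C, and the transcripts CU633967.1 and AL358781.1 also fell, by 0.92, 1.54 and 0.80, and their counts are uncertain where reads fit more than 1 copy. LFNG and these 3 did not pass without the set term (edgeR adjusted p between 0.0529 and 0.271), nor LFNG with the letter block (0.0749).

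**Figure D3:**
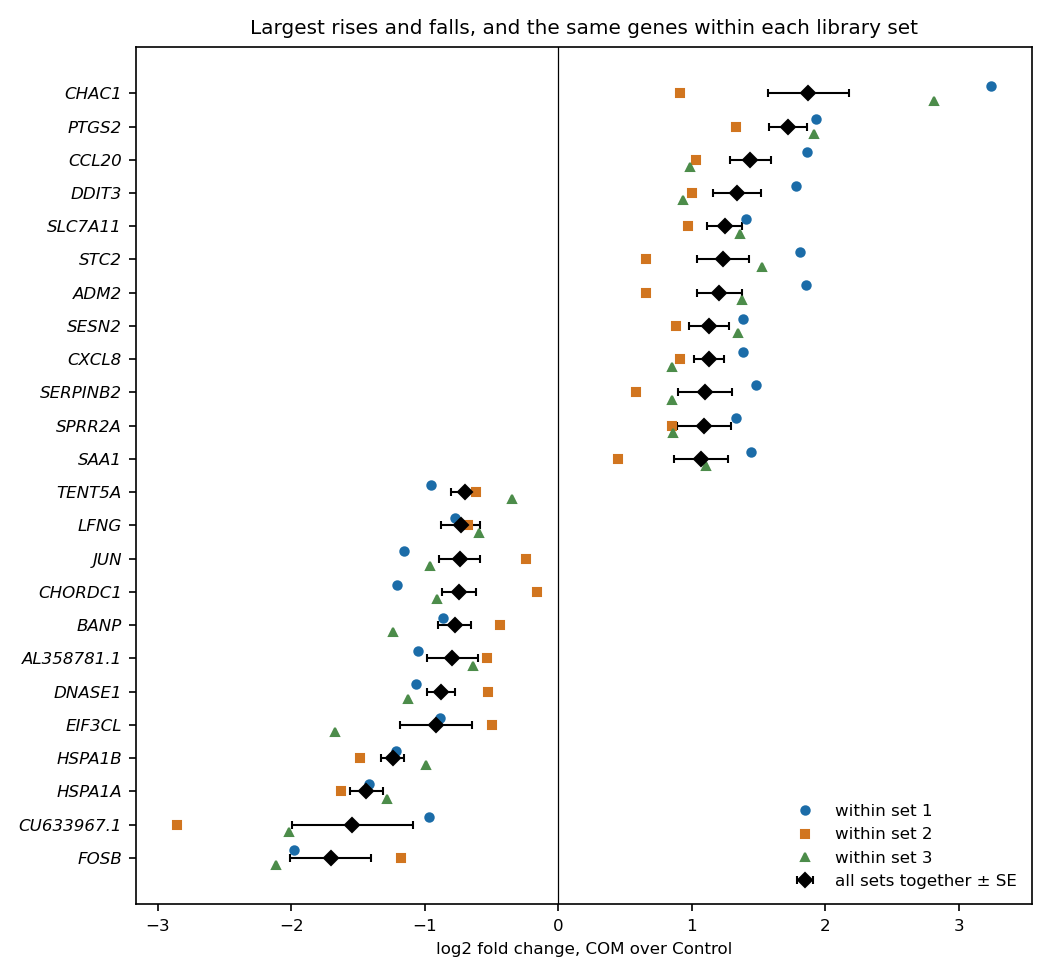
Log2 fold change of COM over Control for the 12 largest rises and 12 largest falls, as a diamond ± SE for all sets together and as symbols within each library set. CHAC1 stands at 3.25, 0.91 and 2.82 in sets 1, 2 and 3, while HSPA1A stands at -1.42, -1.63 and -1.28.

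Next, the monohydrate was set against the dihydrate. COM and the mean of DB, SPH and TN, the forms with libraries in every set, differed at 46 genes (0.284% of those tested), of which 36 were higher in COM (0.223%) and 10 lower (0.0618%), and 1816 had an unadjusted edgeR p under 0.05. Of these, 32 had also risen and 8 had also fallen against Control, and both contrasts share the COM libraries. Against single forms, COM differed at 32 genes for DB (0.198%), 88 for SPH (0.544%), 814 for TN (5.03%) and 2349 for TK (14.5%), whose libraries all lie in set 2, where COM has 1 library. Against Control, the fit called 957 genes higher (5.92%) and 663 lower (4.10%) for DB, and in either direction 18 for SPH (0.111%), 1894 for TN (11.7%) and 2485 for TK (15.4%). The count of 46 rested on set 1, since it was 5 without COM A, 4 without COM B and 136 without COM C. It was 25 without TN B and 182 without TN C. Within set 1 alone 390 genes differed, within set 2 none (653 had an unadjusted p under 0.05) and within set 3 2. Without the set term 3 genes were called.

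A total of 3 genes were higher in COM than in each of the 4 dihydrate forms (0.0185% of those tested) and none was lower in all 4, with p-values adjusted over all genes within each contrast. They were picked for this pattern, and TNFAIP2 was named after its values were seen. SOD2 averaged 239.7 CPM in COM, 157.3 in DB, 121.3 in SPH, 178.1 in TN and 179.8 in TK. Relative to these forms SOD2 was higher by 0.62, 0.99, 0.43 and 0.61 on the log2 scale, with edgeR adjusted p of 0.00101, 5.07e-07, 0.00759 and 0.0003. PMEPA1 was higher by 0.63 than in DB, 0.73 than in SPH, 0.39 than in TN and 0.55 than in TK, with edgeR adjusted p between 0.000674 and 0.028. TNFAIP2, an NF-kB target that helps form membrane tubes, was higher by 0.58, 0.55, 0.30 and 0.72 than in DB, SPH, TN and TK, with edgeR adjusted p between 2.34e-05 and 0.0291. TNFAIP2 had 191.2, 203.5, 169.5 and 176.5 CPM in COM A to D, and each value exceeded all libraries of DB, whose highest had 142.2 CPM, and of SPH, whose highest had 148.7 CPM. In TN its highest value, 168.8 CPM in TN D, came close to COM C.

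Among the 46 genes, MMP9 showed the largest difference between the monohydrate and the dihydrates. It averaged 10.4 ± 5.9 CPM in COM, 3.27 ± 2.63 in DB, 1.16 ± 0.52 in SPH, 0.671 ± 0.384 in TN and 0.182 ± 0.072 in TK, and 1.34 ± 0.82 in Control (SD, n = 4 each and 7 for Control). Against the mean of DB, SPH and TN it was higher by 2.75 on the log2 scale (SE 0.31, edgeR adjusted p = 2.3e-05). Against single forms it was higher than in SPH by 3.03, in TN by 3.54 and in TK by 4.68. The difference from DB was 1.67 with an interval from 0.83 to 2.52, which gave an edgeR adjusted p of 0.109 over all genes of that contrast and 0.0177 over all genes of the 4 contrasts together. With that joint adjustment 6 genes were higher in COM than in every dihydrate form and 2 were lower (0.0371% and 0.0124% of those tested). The other members higher in COM were LTB, the cytokine lymphotoxin beta, by 0.81 to 1.35 on the log2 scale, and SERPINA3, a protease inhibitor of the acute phase, by 0.40 to 0.66. The lower ones were NCOA5, a nuclear receptor coactivator, with log2 differences of -0.41 to -0.74, and TEPSIN, an adaptor of vesicle coats, with -0.46 to -0.51. LTB and SERPINA3 were named after their values were seen. The joint adjustment is looser for DB and SPH, since the many calls against TN and TK enter it. With p adjusted within each contrast, LTB and SERPINA3 did not pass against DB (edgeR adjusted p = 0.141 and 0.134). NCOA5 then passed against neither DB nor SPH (0.0551 and 0.0784), and TEPSIN did not pass against SPH (0.0553). MMP9 and SOD2 passed the test against the mean of the dihydrates in all 13 alternatives run across sets, and PMEPA1 in 12, the exception being the fit without the set term (edgeR adjusted p = 0.574).

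**Figure D4:**
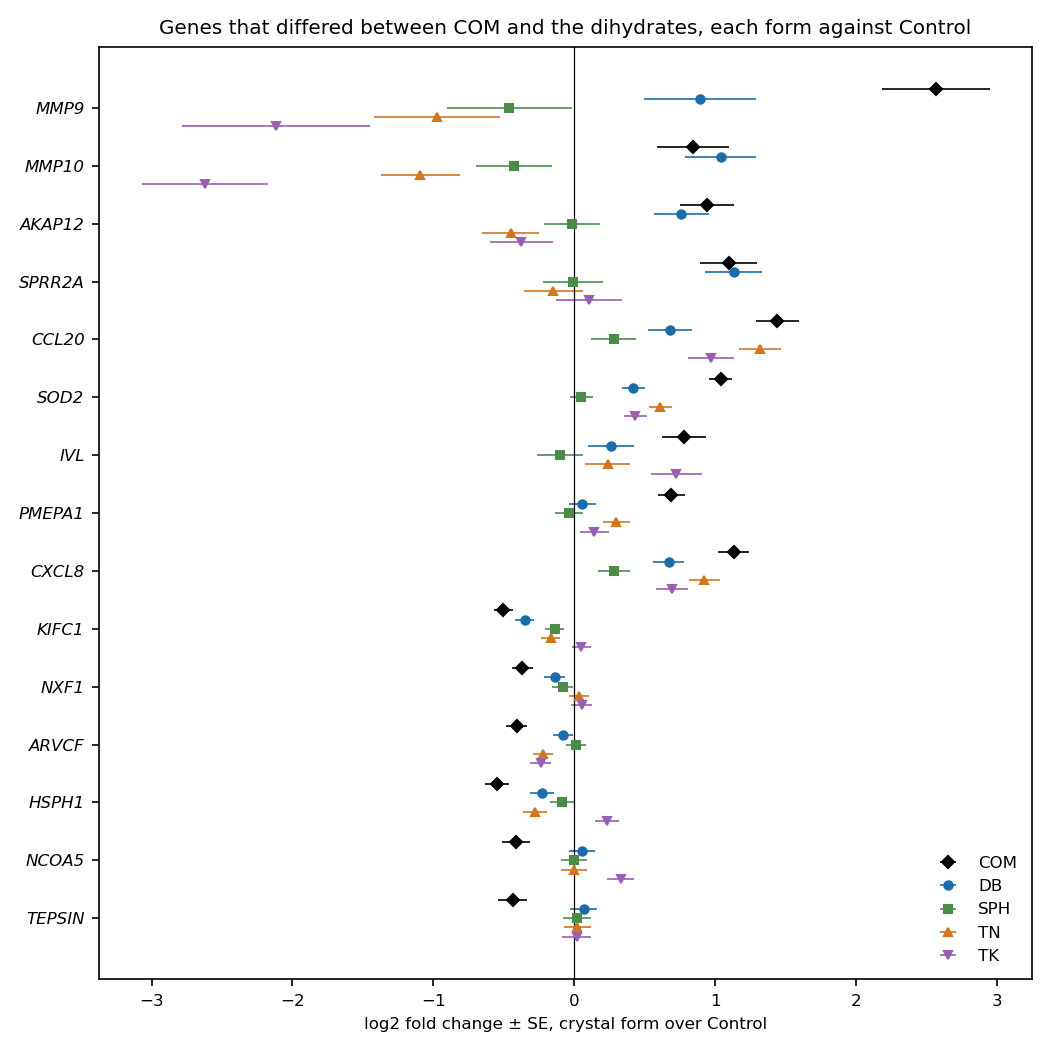
Log2 fold change ± SE of each crystal form over Control for genes that differed between COM and the dihydrates, 1 symbol per form. MMP9 stands at 2.56 in COM, 0.89 in DB, -0.46 in SPH, -0.97 in TN and -2.12 in TK. All forms share the same controls.

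Several other genes that were higher in COM than in the dihydrate mean lay close to at least 1 of the forms. MMP10, SPRR2A and AKAP12 were higher than that mean by 1.01, 0.77 and 0.85. MMP10 had 41.5, 45.3, 5.51 and 32.9 CPM in COM A to D, 32.9, 32.0, 12.6 and 53.03 CPM in DB, and 4.45, 7.05, 4.25 and 12.6 CPM in TN. The difference of COM from DB was -0.20 on the log2 scale for MMP10 (interval -0.76 to 0.37) and -0.04 for SPRR2A (interval -0.47 to 0.40). In contrast, CCL2 and SAA2, at 0.83 and 0.96 above the mean, were lower in DB and SPH than in TN. SAA2 had 7.63, 6.42, 3.43 and 7.72 CPM in TN, within reach of COM, and CCL2 had 8.41, 6.11, 4.94 and 4.34 CPM in TN against 4.37, 5.67, 5.78 and 2.87 CPM in COM. From TK, which is not in that mean, COM differed by -0.28 for CCL2 (interval -0.69 to 0.12) and by 0.40 for SAA2 (interval -0.08 to 0.88). CCL20 differed from TN by 0.12 (interval -0.20 to 0.45) and from TK by 0.47 (interval 0.09 to 0.86). Of the 26 genes higher in COM against both the dihydrates and Control that had a promoter in the table, 8 (30.8%) held the NF-kB motif, against 6.77% of all promoters. Genes lower in COM than in the dihydrate mean included TEPSIN with a log2 difference of -0.47, HSPH1 with -0.35, the mRNA exporter NXF1 with -0.31 and the mitotic kinesin KIFC1 with -0.28.

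Several of the largest responses to COM were not shown to differ from those to DB and TN. The lists above also had members called against Control in other forms. Of all genes, 3.94% were higher and 2.42% lower in COM, and 5.92% and 4.10% in DB. In either direction, 0.111% of all genes were called for SPH, 11.7% for TN and 15.4% for TK. NF-kB list members rose in COM (17 of 22), DB (13), TN (16), TK (10) and SPH (1). ATF4 targets rose in COM (14 of 20), DB (12), TN (13), TK (8, with 1 lower) and SPH (1). Heat shock genes fell in COM (11 of 23), DB (13), TN (7), TK (3, with 5 higher) and SPH (2). Cell division genes fell in COM (12 of 24), DB (6), TN (1) and SPH (1), and 3 rose in TK. The cell division shares in TN and TK lie below the shares of all genes called there. PTGS2 averaged 61.2 ± 16.1 CPM in COM, 55.1 ± 6.2 in DB and 55.4 ± 11.1 in TN, and 28.9 ± 6.5 in SPH (SD, n = 4 each). The difference of COM from DB was 0.11 with an interval from -0.20 to 0.42, and from TN it was 0.14 with an interval from -0.17 to 0.45, while from SPH it was 1.08 (edgeR adjusted p = 0.000674). HSPA1A differed from DB by -0.07 (interval -0.34 to 0.20) and from TN by -0.03 (interval -0.30 to 0.24), and its difference from SPH was -0.62 (edgeR adjusted p = 0.0237). CHAC1 differed from DB by 0.01 (interval -0.63 to 0.64) and from TN by -0.31 (interval -0.94 to 0.32). These intervals cover 95% and come from the fit with the set term.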

How the data were processed

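RNA-seq of 27 libraries was analysed, 4 COM, 16 dihydrate and 7 Control. The authors deposited 1 RSEM table per library with expected counts for 60683 genes, per the file headers. The tables also hold TPM (transcript abundance scaled to a fixed total), which RSEM computed for the authors from the same counts and effective lengths. Trim Galore, Bowtie2 and RSEM, with the build GRCh38, appear in the submitters' processing notes. No source used here gives their versions, the annotation or the strand setting. Without a strand setting, overlapping and antisense genes cannot be told apart, and RSEM splits reads between near-identical copies.

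Expected counts were rounded, filtered with filterByExpr, scaled with TMM and fitted with edgeR 4.0.16 (R 4.3.3) by quasi-likelihood over all 27 libraries, with the group and the library set as terms. Standard errors are the fold change over the square root of F. CPM values use the TMM-normalized library totals. P-values were adjusted by Benjamini-Hochberg over all 16173 genes in each contrast, and a gene was called at an adjusted p under 0.05. Fits within 1 set share the spread of all libraries, since some arms hold 1 library. The fitting script was tested on simulated data. Replicates were not copies of the same counts, since the chi-square of their counts per degree of freedom was at least 2.92. This check cannot show whether they are separate cultures. Same-lettered COM and Control libraries deviated together (correlations 0.35, 0.24, 0.24 and 0.17 for A to D), so the letters were also tried as a block. Unlike-lettered pairs within a set had 0.22 (COM C with Control D), 0.18 (COM B with Control A) and 0.02 (COM A with Control B). The A to C pairs also share a set, so these values do not tell letter and set apart.

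The members, gene lists and sets were chosen with earlier results of these data known. Named genes were the 12 largest rises and 12 largest falls averaging 5 CPM or more and with every COM library on the same side of its own set's controls, up to 3 called members per list, the 8 largest rises and 8 largest falls against the dihydrates, and 12 genes followed throughout. Other list members named were chosen after their values were seen, and a few genes are not reported here. The 40 lists hold 716 genes, of which 660 were tested. Promoters (300 bases, RefSeq, GRCh38.p14) matched 10676 of 12861 protein-coding tested genes by symbol, and 5 motifs were searched on both strands, the others being TGACNNNGC (14.8% of all promoters, 14.7% of genes that rose) and TTTGAA (9.84% of all promoters, 17.4% of genes that fell). Counts limit precision, and with PCR duplicates not marked they are not independent molecules.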

Additional observations from a re-analysis of the deposited data

Results flagged for a closer look

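In the 4 COM libraries or the 7 Control libraries, 14 of 218 group checks held 1 library far from the rest, where chance gives about 1 in 20. Most of the flagged checks were in COM, and most of those concerned COM C. The number in parentheses is the gap to the nearest library over the whole range. COM C was the highest COM library for STC2 at 177.5 CPM (0.87), CHORDC1 at 43.4 CPM (0.86), GPT2 at 98.1 CPM (0.90), PSAT1 at 323.0 CPM (0.879) and KRT5 at 2731 CPM (0.90). It was the lowest for PMEPA1 at 36.6 CPM (0.921), CDKN1A at 239.8 CPM (0.887), KRT81 at 516.6 CPM (0.85), KRT16 at 202.6 CPM (0.895) and LCN2 at 70.8 CPM (0.955). COM C is the only COM library of set 2, and the part that the set plays in these values was not tested. COM D stood apart for CARD8 at 13.9 CPM (0.905) and NFE2L2 at 96.6 CPM (0.861), COM B for ERN1 at 22.1 CPM (0.916), and Control D for ADM at 17.1 CPM (0.818).

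The effect of COM differed between set 1 and set 2 by the edgeR interaction test for CHAC1 (adjusted p = 0.0244), ADM2 (adjusted p = 0.0307), STC2 (adjusted p = 0.0376) and AC008522.1 (adjusted p = 0.0307), which had no counts in COM C and Control A, so no fold is given. ADM2 was higher by 1.85, 0.66 and 1.38 on the log2 scale in sets 1, 2 and 3, and STC2 by 1.81, 0.66 and 1.53. For CHAC1, STC2 and ADM2 the set 2 controls lay above those of the other sets, and 1200 genes had an unadjusted interaction p under 0.05.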

How the results depend on the processing

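The count of 1029 genes called against Control was within 1.5 times of that under TMM replaced by DESeq2 size factors or upper quartile scaling, other filters on low counts, the DESeq2 test, a fit of the 11 libraries alone, and fits without TN B or TN C (1019 to 1314). It was 543 without the set term, 661, 81 and 16 within sets 1, 2 and 3, 566 with the letters A to D as a replicate block and 19 for the same 8 libraries without that block, and 529 to 1001 leaving out 1 library. The count past 1 on the log2 scale was 58. Upper quartile scaling gave 57.2% of calls as higher, against 62.0%. The count against the dihydrate mean, 46, was 3 without the set term, 390 without a filter on low counts, 75 with a mean of at least 1 CPM, 207 by DESeq2, 182 without TN C, 25 without TN B, 390, 0 and 2 within sets 1, 2 and 3, 614 with TK in the mean and 4 to 136 leaving out 1 COM library. TN B was left out as an alternative chosen after seeing the data. For the named genes against Control, 2149 of the values kept their side of the threshold and their direction, 452 lost the call, 5 gained one and 10 changed sign. Those 10 were PHLDA1 -0.006, INHBA -0.032 and WIPI1 -0.005 within set 3, BCL2A1 -0.056 and CDH1 -0.095 within set 2, and SPP1 0.041 without the set term, 0.48 in set 1, 0.21 with the replicate block, 0.15 without COM C and 0.096 without Control G (leaving out 1 library at a time gave -0.457 to 0.147). Against the dihydrates the values that changed sign were CHAC1 -0.15 in set 3, DDIT3 -0.11 in set 2 and -0.011 without COM A (0.374 at most without another), and CDH1 0 with upper quartile scaling, -0.006 without a filter, -0.015 without TN B, -0.25 in set 2, -0.06 without COM B and -0.031 without COM D (-0.06 to 0.067 leaving out 1 COM library). Their causes were not tested. Set 3 holds 1 library per arm and set 2 has 1 COM library, which limits what can be called there.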
